A study of Mus musculus with 16 samples.

Results

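The genes of fatty acid oxidation and the targets of PPARA were followed in mouse liver with and without the histone chaperone HIRA in hepatocytes, before and after regeneration. The set held 39 genes chosen by name from 55421 gene IDs in the count table, with earlier results of these data known. All 39 were found and all 39 passed the filter on low counts, which left 23018 genes for testing. Bulk poly-A RNA-seq had been carried out on 16 libraries as 4 libraries for each combination of genotype (control or HIRA KO) and time (before or after partial hepatectomy). Controls were wildtype C57BL/6 male mice given AAV8-Tbg-Cre or AAV8-Tbg-saCas9 with a guide to Rosa26. HIRA KO mice were HIRA fl/fl given AAV8-Tbg-Cre, or wildtype given AAV8-Tbg-saCas9 with a guide to HIRA. All groups had thus received an AAV8 virus, while only the tissue after regeneration had followed surgery. Per the labels either way of targeting gave 2 of the 4 libraries in a group. The Tbg promoter is active in hepatocytes, so the other cells of the liver kept an intact gene. Virus was given at 6 months of age, the left lateral and median lobes were resected 4 weeks later and served as the tissue before regeneration, and the remaining liver was taken 5 days after resection. The lobe, the way of collection and the time therefore changed together and cannot be told apart.

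Hepatocytes burn fatty acids mainly in mitochondria. A fatty acid is taken up, coupled to coenzyme A, passed through the mitochondrial membranes as a carnitine ester and shortened stepwise by dehydrogenation, hydration, a further dehydrogenation and thiolytic cleavage. Very long chains are shortened in peroxisomes and some chains are oxidized at their omega end by Cyp4a enzymes in the endoplasmic reticulum. PPARA, a nuclear receptor activated by fatty acids, acts with RXR and drives much of this program in the fasted liver, and its partner PGC-1α (Ppargc1a) is a coactivator.

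Total counts per library ran from 15103059 to 21738619, and the counting error of a value depends on the reads of that gene in the library. Replicates were separate columns of the count table, and which mouse each came from was not given, so p-values measure the spread between these libraries. By the design, tissue before and after regeneration can come from the same mice, and the tests of after against before treated all libraries as independent. Hira itself was lower, at 3.04 to 4.56 CPM (read counts scaled to library size with TMM factors) in the 8 HIRA KO libraries and at 4.99 to 6.29 CPM in the 8 control libraries. The hepatocyte markers were expressed throughout, with a sum over 10 genes of 112434 to 172168 CPM and none of the 10 at 0. The HIRA KO libraries in the columns numbered 1 and 2, before and after regeneration, lay apart from the other 12 on the second principal component, at -47.4 to -36.2 against -1.14 to 31.2. As bulk tissue was sequenced, fewer cells of a type and less RNA per cell cannot be told apart.

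Measured per transcript length, in the deposited FPKM, the set spanned from Acaa2 at a mean over the 16 libraries of 354 FPKM to Ppargc1a at 0.824 FPKM. Acaa2 (the last thiolase step in mitochondria), Slc27a2 (a fatty acid transporter and acyl-CoA synthetase, 314 FPKM), Acaa1b (a peroxisomal thiolase, 308 FPKM) and Acadm (medium-chain acyl-CoA dehydrogenase, 221 FPKM) stood at the top. Within the group of control libraries before regeneration, Slc27a2 at 418 ± 31.2 FPKM (SD, n = 4), Acaa2 at 399 ± 27.9 and Acaa1b at 380.5 ± 168 did not differ beyond their spread. Cpt1a, whose product is the regulated entry step of mitochondrial oxidation, had a mean of 50.9 FPKM, and Ppara one of 15 FPKM. The lower end held the acyl-CoA thioesterases Acot4 (6.21 FPKM), Acot3 (3.24 FPKM) and Acot2 (2.95 FPKM), the pyruvate dehydrogenase kinase Pdk4 (4.10 FPKM) and the secreted hormone Fgf21 (2.43 FPKM). The plot of FPKM in every library shows that the enzymes of the mitochondrial steps kept within narrow ranges, while Cyp4a14, Fgf21, Vnn1 and Acot3 each spread widely.

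**Figure D1:**
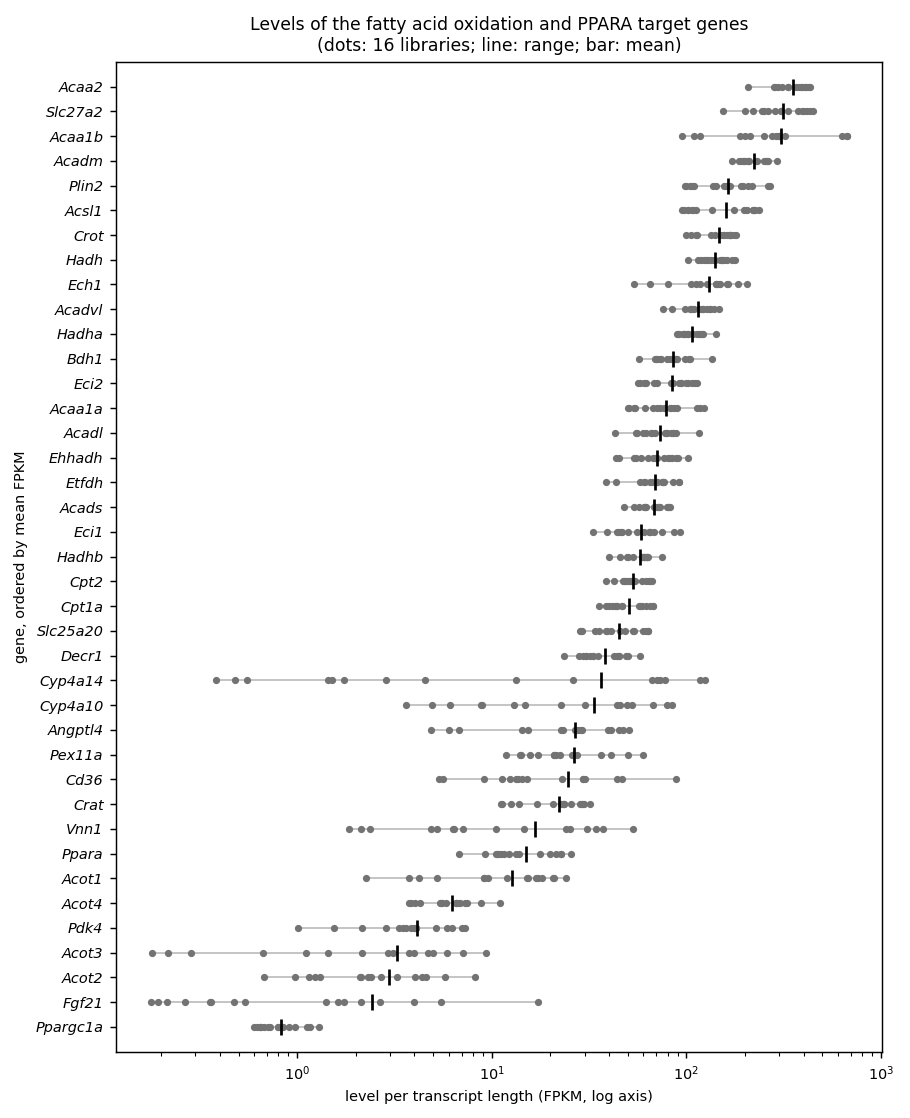
Level per transcript length of each of the 39 genes. The x axis is FPKM on a log scale, dots are the 16 libraries, the line their range and the bar their mean. Genes are ordered by mean, from Acaa2 at 354 to Ppargc1a at 0.824 FPKM, and Cyp4a14 and Fgf21 have far wider ranges than the mitochondrial enzymes.

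PPARA and RXR together recognise a direct repeat of the hexamer AGGTCA with 1 base between the copies. In the RefSeq promoter table (build GRCm38.p6), 32 of the 39 genes were matched, with 35 start sites in all, and the 250 bases before each start were searched on both strands. The 7 genes without a match, Acaa2, Crat, Decr1, Cyp4a10, Cyp4a14, Vnn1 and Angptl4, were not searched. The hexamer, written AGGTCA or TGACCT by strand, occurred before the start of 7 genes, in 20% of the 35 windows and in 14.0% of all 32851 windows of the table. The full direct repeat, which contains the hexamer, occurred in none of the 32 genes and in 0.0335% of all windows. A match is a description of these letters only. The windows of Ppara, Acsl1, Acaa1a, Acot3 and Crot, whose values are given in detail below, did not hold it. To show where the hexamer lies, the windows of 4 of the 7 genes with it are printed 5′ to 3′ with the hexamer in capitals: Cd36 (chr5:17835897-17836146, minus strand, first base of the hexamer at -228 from the start), Plin2 (chr4:86670060-86670309, minus strand, -218), Slc27a2 (chr2:126552774-126553023, plus strand, -220) and Cpt1a (chr19:3323051-3323300, plus strand, -94).
Cd36: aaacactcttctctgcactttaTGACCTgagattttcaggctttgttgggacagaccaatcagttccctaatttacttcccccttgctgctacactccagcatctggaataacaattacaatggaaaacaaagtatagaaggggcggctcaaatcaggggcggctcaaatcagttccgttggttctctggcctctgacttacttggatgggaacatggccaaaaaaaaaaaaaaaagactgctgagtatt
Plin2: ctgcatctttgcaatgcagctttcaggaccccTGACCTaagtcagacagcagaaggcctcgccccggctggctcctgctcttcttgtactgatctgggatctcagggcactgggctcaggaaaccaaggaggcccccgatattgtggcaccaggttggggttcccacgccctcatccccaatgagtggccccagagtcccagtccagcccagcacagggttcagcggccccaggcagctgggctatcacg
Slc27a2: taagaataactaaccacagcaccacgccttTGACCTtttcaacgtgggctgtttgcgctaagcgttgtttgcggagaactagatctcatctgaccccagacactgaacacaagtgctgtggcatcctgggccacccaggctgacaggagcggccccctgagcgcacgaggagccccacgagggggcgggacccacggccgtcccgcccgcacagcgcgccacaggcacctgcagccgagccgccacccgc
Cpt1a: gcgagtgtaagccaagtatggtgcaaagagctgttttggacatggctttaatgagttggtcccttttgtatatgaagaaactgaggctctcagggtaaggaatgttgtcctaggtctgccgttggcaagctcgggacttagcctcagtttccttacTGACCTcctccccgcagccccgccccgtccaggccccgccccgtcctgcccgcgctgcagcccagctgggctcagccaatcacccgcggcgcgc

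Over all libraries, no gene of the set differed between HIRA KO and control at an adjusted p under 0.05, before or after regeneration. Before regeneration, 0 of 39 genes passed the test of edgeR, against 0.0391% of all 23018 genes, and DESeq2 called 0 against 1.63%. The median log2 fold change (HIRA KO over control) was -0.10 over the 39 genes and 0.01 over all genes, with 17 genes above 0 and 22 below. At an unadjusted p under 0.05 there was 1 gene of the 39, Crot, against 13.2% of all genes. After regeneration, 0 of 39 genes passed, against 0.491% of all genes, and DESeq2 called 0 against 3.95%. The median was then -0.09 over the 39 genes and 0.02 over all genes, with 12 genes above 0 and 27 below, and no gene of the 39 had an unadjusted p under 0.05, against 15.8% of all genes. The largest values were those of Acot3 before regeneration, at 1.86 ± 0.97 (SE), and of Fgf21 after it, at -2.32 ± 1.37. Standard errors ran from 0.14 for Acsl1 to 1.89 for Cyp4a14 before regeneration, so for Cyp4a14 even a difference of several fold could not have been detected.

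Of the regulators, Ppara (ENSMUSG00000022383.13, chr15:85734983-85802819, plus strand, mm10) stood at 82.4, 75.8, 54.7 and 70.8 CPM in control before, 31.8, 36.3, 70.8 and 79.1 CPM in HIRA KO before, 43.2, 43.6, 35.5 and 39.7 CPM in control after and 20.9, 27.5, 35.6 and 35.6 CPM in HIRA KO after regeneration, in the order of the columns. The first pair of HIRA KO libraries before regeneration lay below every control library before regeneration, while the other pair lay within the range of the controls. The difference between the groups was -0.38 ± 0.26 on the log2 scale before (adjusted p = 0.559) and -0.44 ± 0.26 after regeneration (adjusted p = 0.441). Ppargc1a had 10.6, 7.75, 6.35 and 7.81 CPM in control before, 9.31, 8.47, 6.53 and 5.70 CPM in HIRA KO before, 6.83, 4.59, 5.34 and 4.56 CPM in control after and 4.71, 6.26, 4.55 and 5.62 CPM in HIRA KO after regeneration, and the HIRA KO and control groups overlapped at both times.

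Of the 6 genes of activation and the carnitine shuttle, Crot, a peroxisomal carnitine octanoyltransferase, gave the smallest p before regeneration. It stood at 586, 630.2, 571 and 678 CPM in control and 382, 483, 564 and 455 CPM in HIRA KO, a difference of -0.39 ± 0.17 (adjusted p = 0.354). These groups did not overlap, as was so for 1 of 39 genes toward lower values in HIRA KO, against 4.53% of all genes. After regeneration Crot had 610.5, 579, 644 and 589 CPM in control and 333, 390.5, 586 and 602 CPM in HIRA KO, where the groups overlapped, with a difference of -0.34 ± 0.17. Crat, the mitochondrial and peroxisomal carnitine acetyltransferase, had 31.6, 29.6, 51.3 and 89 CPM in control before, 62.4, 77.8, 88.9 and 81.8 CPM in HIRA KO before, 41.2, 40.5, 66.7 and 83.9 CPM in control after and 83.8, 66, 58.7 and 58.5 CPM in HIRA KO after regeneration. Its difference was 0.63 ± 0.32 before (adjusted p = 0.425) and 0.20 ± 0.32 after regeneration. For Cpt1a, with 356, 299.6, 244 and 373 CPM in control before, 208, 226, 310.2 and 327 CPM in HIRA KO before, 215, 211, 239.8 and 295 CPM in control after and 169.7, 326, 229 and 204 CPM in HIRA KO after regeneration, the differences were -0.25 ± 0.20 and -0.05 ± 0.20. Acsl1, the long-chain acyl-CoA synthetase, was at 0.06 ± 0.14 and 0.08 ± 0.14, and Cpt2, which releases the fatty acid from carnitine inside the mitochondrion, at 0.10 ± 0.14 and 0.00 ± 0.14. The carrier Slc25a20 was at -0.14 ± 0.31 and -0.12 ± 0.31.

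The 5 dehydrogenase genes and the 8 genes of the later mitochondrial steps had small differences, none of which passed the test. Over the dehydrogenases Acadvl, Acadl, Acadm and Acads and the electron carrier reductase Etfdh, the log2 fold changes lay between -0.15 and -0.11 before and between -0.30 and 0.00 after regeneration. Acadm had 333, 320.1, 296 and 389 CPM in control before, 255, 257, 345 and 350.0 CPM in HIRA KO before, 245, 243, 328 and 374 CPM in control after and 240.4, 279, 295 and 308 CPM in HIRA KO after regeneration. Over Hadha and Hadhb (the trifunctional protein), Hadh, Acaa2, the isomerases Eci1 and Ech1, the reductase Decr1 and the ketone body enzyme Bdh1, they lay between -0.32 and 0.06 before and between -0.25 and -0.04 after regeneration. Hadha had 328, 343, 353 and 425 CPM in control before, 347, 343, 409.5 and 413 CPM in HIRA KO before, 318, 295, 349 and 435 CPM in control after and 275, 309, 356 and 384 CPM in HIRA KO after regeneration. In both genes the groups overlapped at both times.

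The peroxisomal genes likewise overlapped between HIRA KO and control. Ehhadh, the peroxisomal bifunctional enzyme, had 258, 214, 214 and 347 CPM in control before, 292, 283, 246 and 311 CPM in HIRA KO before, 169, 184, 350.5 and 293 CPM in control after and 138, 233, 211 and 265 CPM in HIRA KO after regeneration, with differences of 0.13 ± 0.23 and -0.23 ± 0.23. Acaa1b had 529, 548, 597 and 1226 CPM in control before, 529.6, 436, 1266 and 1310.1 CPM in HIRA KO before, 221, 161, 336 and 338 CPM in control after and 174, 339, 449.9 and 555 CPM in HIRA KO after regeneration, and its differences were 0.29 ± 0.44 and 0.52 ± 0.44. In each group of Acaa1b the libraries of columns 3 and 4 were the highest. The differences of the thiolase Acaa1a (-0.16 ± 0.20 and 0.22 ± 0.20), the isomerase Eci2 (-0.05 ± 0.25 and 0.06 ± 0.25) and the peroxisome division factor Pex11a (-0.10 ± 0.50 and -0.09 ± 0.50) were within 2 standard errors of 0.

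The omega hydroxylases varied widely within each group. Cyp4a14 (ENSMUSG00000028715.2, chr4:115486200-115496142, minus strand) had 5.07, 1.08, 15.7 and 247 CPM in control before, 1.38, 1.47, 242 and 84.9 CPM in HIRA KO before, 42, 4.07, 349 and 352 CPM in control after and 4.89, 8.44, 189 and 209.9 CPM in HIRA KO after regeneration. Its 4 control libraries before regeneration thus ranged from 1.08 to 247 CPM, and the HIRA KO differences were 0.30 ± 1.89 and -0.86 ± 1.90. Cyp4a10 had 19.9, 8.12, 75.9 and 199 CPM in control before, 27.7, 12.3, 189.6 and 118 CPM in HIRA KO before, 56.9, 10.6, 150.0 and 113 CPM in control after and 17.6, 31.9, 98.7 and 99.5 CPM in HIRA KO after regeneration, with differences of 0.20 ± 1.09 and -0.42 ± 1.09. The lowest and the highest library of each group were a low-numbered and a high-numbered column, respectively.

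The 4 acyl-CoA thioesterases lie in one cluster on chromosome 12, in the order Acot2, Acot1, Acot4 and Acot3, with 3542 to 20007 bases between neighbours. They release free fatty acids from coenzyme A, Acot1 in the cytosol, Acot2 in mitochondria and Acot3 and Acot4 in peroxisomes. All 4 had values above 0 for HIRA KO over control before regeneration, between 0.44 for Acot4 and 1.86 for Acot3, and none passed the test. Acot3 (ENSMUSG00000021228.15, chr12:84052144-84060402, plus strand) had 2.09, 0.377, 1.09 and 6.63 CPM in control before, 7.36, 8.67, 12.6 and 8.27 CPM in HIRA KO before, 0.501, 0.287, 4.09 and 8.35 CPM in control after and 14.6, 19.8, 5.45 and 2.62 CPM in HIRA KO after regeneration. Before regeneration every HIRA KO library of Acot3 lay above every control library, which was so for 1 of the 39 genes and for 3.54% of all genes, and the difference was 1.86 ± 0.97 (adjusted p = 0.434). After regeneration the groups overlapped, with a difference of 1.66 ± 0.94 (adjusted p = 0.423), and no gene of the set was without overlap, higher (3.65% of all genes) or lower (4.45%). Acot1 had 5.97, 4.68, 10.7 and 20.8 CPM in control before, 18, 14.5, 25.6 and 21 CPM in HIRA KO before, 2.63, 4.41, 23.5 and 22.9 CPM in control after and 17.4, 10.7, 21.9 and 9.07 CPM in HIRA KO after regeneration, with differences of 0.91 ± 0.65 and 0.14 ± 0.64. Acot2 had 2.19, 1.13, 2.23 and 4.02 CPM in control before, 4.02, 3.00, 5.51 and 3.51 CPM in HIRA KO before, 2.44, 2.12, 6.76 and 14.9 CPM in control after and 7.75, 11.5, 7.45 and 3.51 CPM in HIRA KO after regeneration, with differences of 0.75 ± 0.59 and 0.20 ± 0.55.

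Among the genes of uptake and storage, Slc27a2 had 1174, 1213, 1100.2 and 1223 CPM in control before, 517, 560.2, 1097 and 1133 CPM in HIRA KO before, 875, 630.3, 862 and 737 CPM in control after and 363, 623, 642 and 749 CPM in HIRA KO after regeneration. Its first pair of HIRA KO libraries before regeneration lay far below the others of that time, and the difference between groups was -0.51 ± 0.25 before (adjusted p = 0.392) and -0.38 ± 0.25 after regeneration. The fatty acid translocase Cd36 had 18.2, 19.5, 51.7 and 169.9 CPM in control before, 31.6, 39.9, 108 and 86.7 CPM in HIRA KO before, 50.4, 52.1, 98.6 and 281 CPM in control after and 41.6, 37.1, 151 and 99.9 CPM in HIRA KO after regeneration, with differences of 0.04 ± 0.82 and -0.55 ± 0.81. The lipid droplet coat protein gene Plin2 had 283, 318, 353 and 595 CPM in control before, 195, 212, 398 and 441 CPM in HIRA KO before, 226, 277, 422 and 493 CPM in control after and 178, 207, 362 and 325 CPM in HIRA KO after regeneration, with differences of -0.31 ± 0.34 and -0.40 ± 0.34.

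The secreted factors and remaining targets were low or variable. Fgf21, a fasting hormone, was counted by 1 to 329 reads in a library, and had 0.547, 0.215, 1.37 and 2.07 CPM in control before, 0.0529, 0.2, 5.44 and 1.57 CPM in HIRA KO before, 0.501, 0.344, 3.71 and 15.8 CPM in control after and 0.0906, 0.133, 2.47 and 1.45 CPM in HIRA KO after regeneration. Its differences were 0.78 ± 1.41 before and -2.32 ± 1.37 after regeneration. The lipoprotein lipase inhibitor Angptl4 had 64.5, 94.7, 57.1 and 119 CPM in control before, 87.3, 33.3, 119.9 and 112 CPM in HIRA KO before, 13.2, 15.2, 53.5 and 62 CPM in control after and 13.4, 31.3, 58.9 and 64.3 CPM in HIRA KO after regeneration, with differences of 0.07 ± 0.60 and 0.22 ± 0.60. Pdk4 had 5.62, 4.52, 24.3 and 16.7 CPM in control before, 17.1, 17.9, 31.8 and 15 CPM in HIRA KO before, 12.5, 14.6, 15.2 and 24.4 CPM in control after and 26.8, 16.4, 23.3 and 8.40 CPM in HIRA KO after regeneration, with differences of 0.68 ± 0.51 and 0.17 ± 0.50. The pantetheinase gene Vnn1 had 14.1, 5.33, 32.2 and 113 CPM in control before, 5.66, 5.13, 95.4 and 72.6 CPM in HIRA KO before, 21.5, 13, 65.6 and 137 CPM in control after and 16.1, 15.8, 80.4 and 40.1 CPM in HIRA KO after regeneration, with differences of 0.12 ± 1.14 and -0.64 ± 1.14, and all of these groups overlapped.

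**Figure D2:**
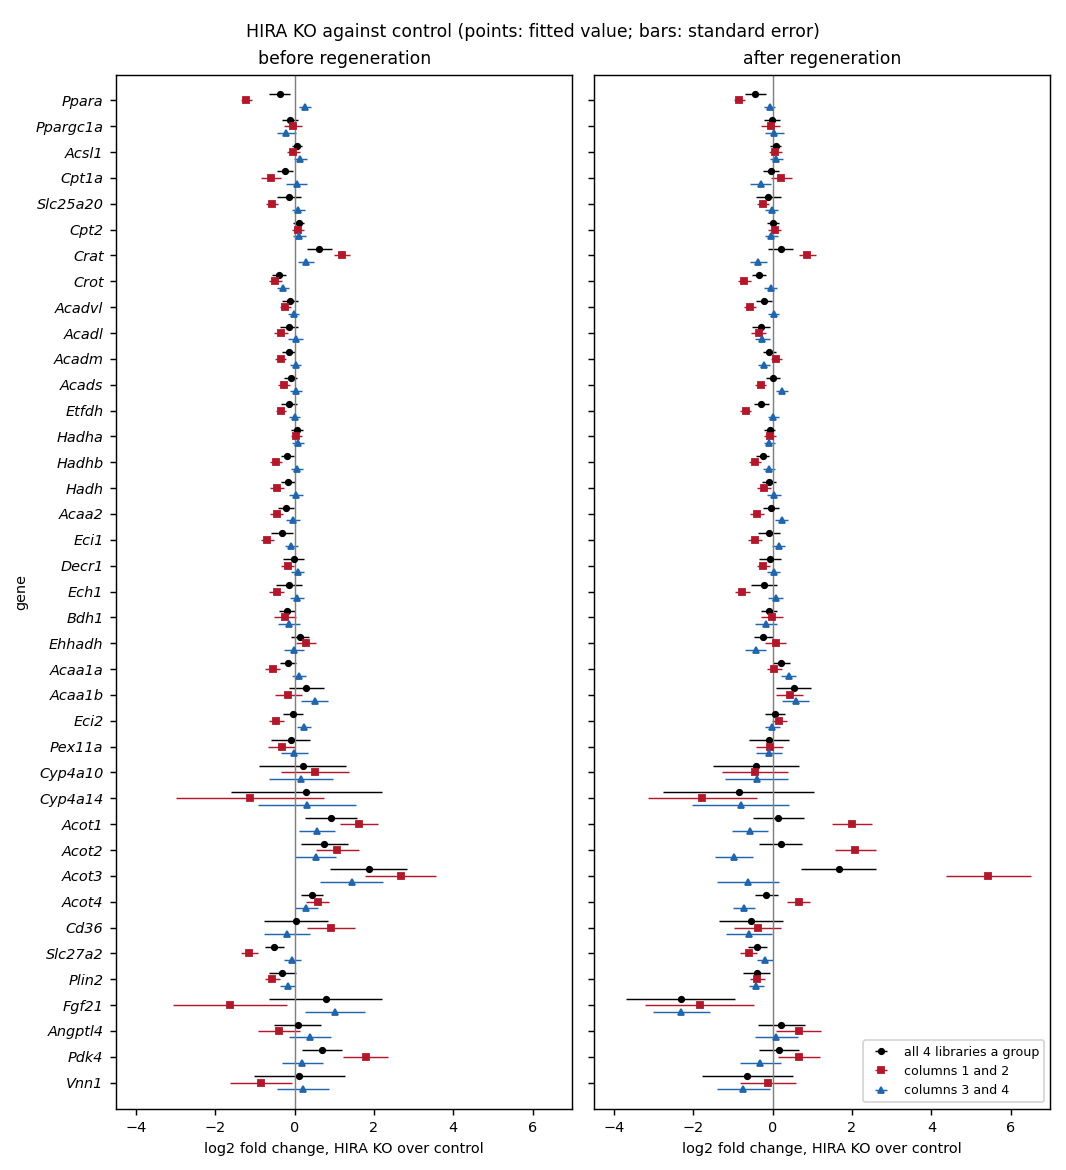
Log2 fold change of HIRA KO over control for each of the 39 genes, before regeneration on the left and after it on the right. Points are fitted values and bars standard errors, in black for all 4 libraries a group, in red for the columns numbered 1 and 2 and in blue for those numbered 3 and 4. Ppara before regeneration is at -0.38, -1.22 and 0.26 in that order.

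The share of these genes called lower after resection was near that of all genes, with Acsl1 the gene called in control and in HIRA KO liver alike. In control liver 2 of 39 genes passed the test, Acsl1 and Acaa1a, both lower after resection, against 10.2% of all genes in either direction and 4.17% lower. DESeq2 called 6, against 14.3% of all genes, with Ppara, Ppargc1a, Acsl1, Acaa1a and Acaa1b lower and Acot2 higher. In HIRA KO liver 2 of 39 passed, Acsl1 and Ppara, both lower, against 12.0% of all genes and 5.53% lower. DESeq2 called 4, namely Ppara, Acsl1, Etfdh and Acaa1b, against 15.9%. The median log2 fold change (after over before) was -0.17 in control and -0.23 in HIRA KO, against 0.00 and 0.02 over all genes. In control 12 genes were above 0 and 27 below, and in HIRA KO 6 above and 33 below. Of all genes, 50.4% and 51.5% were above 0. At an unadjusted p under 0.05 in edgeR there were 1 higher and 8 lower in control, against 23.5% of all genes. In HIRA KO there were 0 higher and 6 lower, against 27.4%.

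Acsl1 (ENSMUSG00000018796.13, chr8:46471037-46536051, plus strand) had 976, 1014, 891 and 1119.9 CPM in control before, 904, 1036, 1045 and 1179.7 CPM in HIRA KO before, 501, 509.7, 425 and 432 CPM in control after and 456, 599, 458 and 456 CPM in HIRA KO after regeneration. Every library after resection lay below every library before it. The log2 fold change was -1.10 ± 0.14 in control (edgeR adjusted p = 0.000185) and -1.08 ± 0.14 in HIRA KO (adjusted p = 0.000199), that is, to 0.467 and 0.473 of the earlier level. Acaa1a had 138, 146, 148 and 176 CPM in control before, 108, 85.2, 181 and 169 CPM in HIRA KO before, 102, 94.7, 77.5 and 98.6 CPM in control after and 81.1, 121, 102 and 130.2 CPM in HIRA KO after regeneration. It fell in control by 0.71 on the log2 scale, with an SE of 0.20 (adjusted p = 0.0333), and without overlap, while in HIRA KO the value was -0.32 ± 0.20 (adjusted p = 0.332) and the groups overlapped. Ppara, with its values given above, changed by -0.87 ± 0.26 in HIRA KO (adjusted p = 0.0427), and in control the value was -0.81 ± 0.26 (adjusted p = 0.0616). The call of Acaa1a in control held in 1 of 8 fits that each left out 1 library, and that of Ppara in HIRA KO in 3 of 8, while Acsl1 was called in all 8 of either comparison.

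Acaa1b had the lowest value of the set in both genotypes, -1.46 ± 0.45 in control (adjusted p = 0.0536) and -1.22 ± 0.44 in HIRA KO (adjusted p = 0.0907), and passed the test in neither. For Ppargc1a the values were -0.61 ± 0.20 (adjusted p = 0.0581) and -0.51 ± 0.20. For Angptl4 they were -1.22 ± 0.61 and -1.07 ± 0.60, and for Slc27a2 -0.60 ± 0.25 and -0.48 ± 0.25. In control, 8 genes had every library after resection below every library before it (Ppara, Acsl1, Etfdh, Acaa2, Eci1, Acaa1a, Acaa1b and Slc27a2), against 8.98% of all genes. In HIRA KO 1 gene did, Acsl1, against 7.45%. The 5 peroxisomal genes all had values below 0 in both genotypes, with medians of -0.71 in control and -0.42 in HIRA KO, and the 5 dehydrogenase genes did so too, with medians of -0.19 in both.

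Not all members had lower values after resection. Acot2 was at 1.47 ± 0.58 in control and 0.92 ± 0.56 in HIRA KO, Cd36 at 0.90 ± 0.82 and 0.31 ± 0.82, Cyp4a14 at 1.48 ± 1.93 and 0.32 ± 1.89, and Crot at -0.03 ± 0.17 and 0.02 ± 0.17, none of which edgeR called. Fgf21 was at 2.30 ± 1.38 in control and -0.80 ± 1.40 in HIRA KO, with SEs over 1 in both. The change of the HIRA KO effect with regeneration was tested as an interaction in edgeR, and 0 of the 39 genes passed, against 0% of all genes. DESeq2 called 0 of the 39, against 67 of all 23018 genes. No gene of the set had an unadjusted p under 0.05 in edgeR, against 6.81% of all genes. The smallest adjusted p of edgeR was 0.794, for Fgf21. For Acsl1 this change of the HIRA KO effect was 0.02 ± 0.19, for Ppara -0.06 ± 0.37 and for Acaa1a 0.39 ± 0.29.

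**Figure D3:**
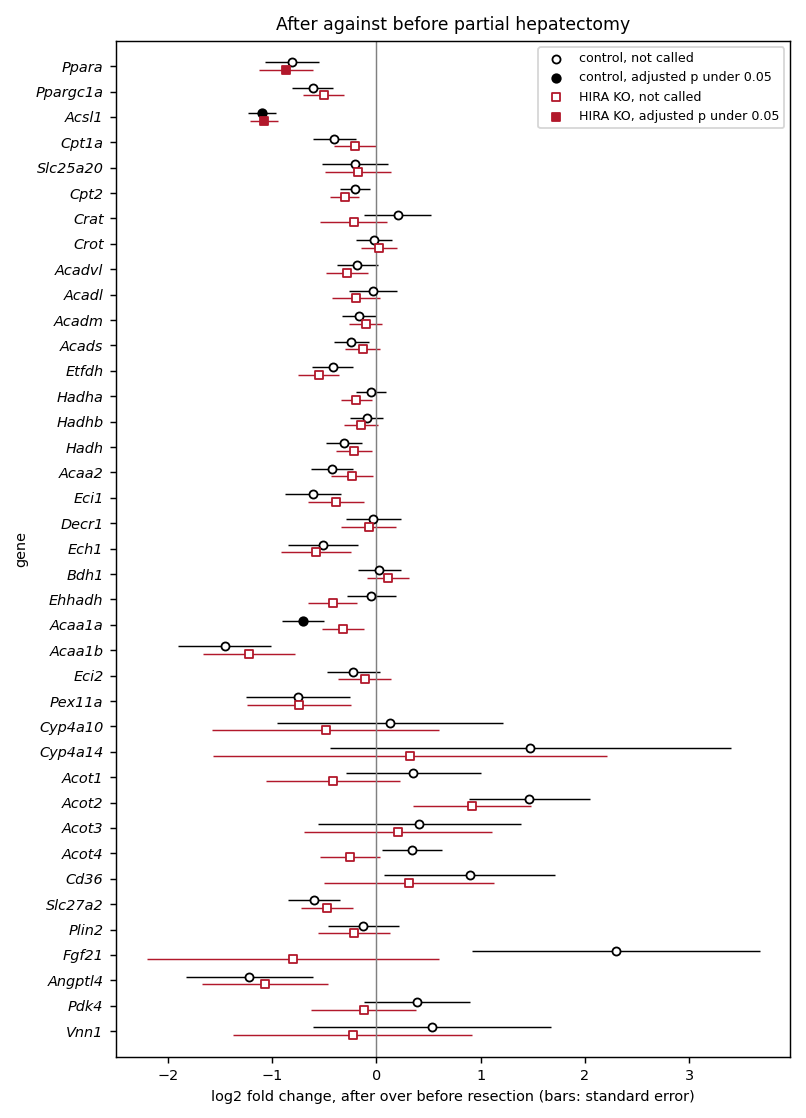
Log2 fold change after over before partial hepatectomy for each of the 39 genes, with control as circles and HIRA KO as squares. Bars are standard errors and filled symbols mark an adjusted p under 0.05. Acsl1 lies at -1.10 in control and -1.08 in HIRA KO with short bars, and Cyp4a14 has the longest bars.

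Beyond genotype and time, the level of many of these genes went with the number of the column. The columns of each group are numbered 1 to 4 in the tables, no label holds these numbers, and whether columns 1 and 2 differ from 3 and 4 in deletion approach, mouse or handling is not given in the sources used here. The split into columns 1 and 2 against 3 and 4 was made after the values had been seen. For 12 of the 39 genes both libraries of columns 3 and 4 lay above both libraries of columns 1 and 2 in all 4 groups, against 1.74% of all genes. The genes were Slc25a20, Hadha, Decr1, Ech1, Acaa1b, Pex11a, Cyp4a10, Cyp4a14, Cd36, Plin2, Fgf21 and Vnn1. Other genes of the set showed the split in fewer groups, as did Acot1 and Angptl4 in 3, Pdk4 and Cpt1a in 2 and Ehhadh in 1. The opposite pattern held for 0 of the 39 genes and for 1.60% of all genes. The deletion approach and whatever else the numbers stand for cannot be told apart here.

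The size of the split differed widely between these genes. The mean of columns 3 and 4 over that of columns 1 and 2 for Cyp4a14 was 42.8 in control libraries before, 115 in HIRA KO before, 15.2 in control after and 29.9 in HIRA KO after regeneration. For Cyp4a10 the ratios were 9.80, 7.68, 3.89 and 4.00, for Vnn1 7.47, 15.6, 5.88 and 3.78, and for Cd36 5.87, 2.72, 3.70 and 3.19, in the same order of groups. Those of Plin2 were 1.58, 2.06, 1.82 and 1.78, and those of Hadha 1.16, 1.19, 1.28 and 1.27. Those of Fgf21 were 4.52, 27.7, 23.1 and 17.5. The ratios of Cyp4a14 were above 10 in every group and those of Hadha, a gene of the trifunctional protein, were below 2. Ppara did not follow this split, with ratios of 0.793, 2.20, 0.868 and 1.47 in the same order.

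**Figure D4:**
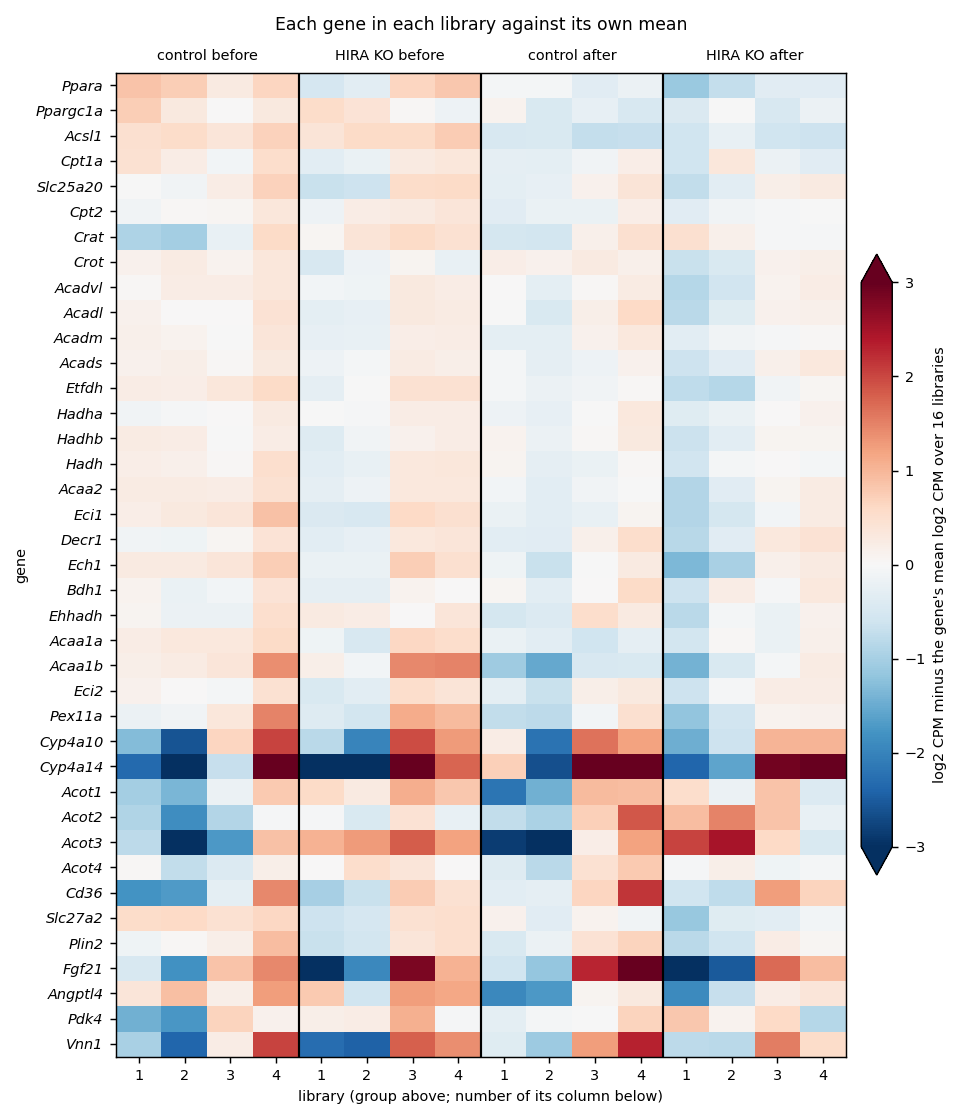
Log2 CPM of each of the 39 genes in each of the 16 libraries, minus that gene's mean. Columns are libraries by group with their number below, and colours run from blue (lower) to red (higher), cut at 3 log2 units. Cyp4a10, Cyp4a14, Cd36, Fgf21 and Vnn1 are redder in columns 3 and 4 than in columns 1 and 2 of every group.

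Within the columns numbered 1 and 2, HIRA KO and control differed for some genes of the set. A model with 8 means, for group and column pair with 2 libraries each, gave before regeneration 5 called genes in columns 1 and 2, against 8.55% of all genes, and 0 in columns 3 and 4, against 0.0478%, where 0 of the 39 had an unadjusted p under 0.05. Crat was higher in HIRA KO, at 1.19 ± 0.21 (edgeR adjusted p = 0.00307), and the genes Ppara (-1.22 ± 0.15, adjusted p = 6.13e-05), Slc27a2 (-1.15 ± 0.21, adjusted p = 0.00213), Eci1 (-0.69 ± 0.17) and Slc25a20 (-0.58 ± 0.16) were lower. After regeneration there were 9 in columns 1 and 2, against 12.4% of all genes, and 0 in columns 3 and 4, against 0.200%, where 4 of the 39 had an unadjusted p under 0.05. The share of all genes at that unadjusted limit was not counted within column pairs, so these counts have no background beside them. Of the 9 called in columns 1 and 2, Crat (0.87 ± 0.21), Acot1 (1.99 ± 0.51), Acot2 (2.08 ± 0.52) and Acot3 (5.44 ± 1.07, adjusted p = 0.0115) were higher, and Ppara (-0.84 ± 0.15, adjusted p = 0.000893), Crot (-0.72 ± 0.16), Acadvl (-0.58 ± 0.14), Etfdh (-0.69 ± 0.14) and Ech1 (-0.76 ± 0.18) were lower. In control columns 1 and 2 after regeneration Acot3 was counted by 8 and 5 reads.

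The same genes had other values in columns 3 and 4. Ppara was at 0.26 ± 0.15 before and -0.08 ± 0.15 after regeneration, Crat at 0.28 ± 0.21 and -0.36 ± 0.21, Slc27a2 at -0.06 ± 0.21 and -0.20 ± 0.21, and Acot3 at 1.44 ± 0.80 and -0.62 ± 0.79. The difference of the HIRA KO effect between the column pairs was tested in the same model. Before regeneration it passed for 1 gene, Ppara, at -1.48 ± 0.21 on the log2 scale (adjusted p = 0.00209), against 0.426% of all genes. For Slc27a2 it was -1.09 ± 0.29 (adjusted p = 0.13). After regeneration it passed for 2 genes, Crat at 1.24 ± 0.29 (adjusted p = 0.0364) and Acot2 at 3.06 ± 0.70 (adjusted p = 0.046), against 2.93% of all genes. For Acot3 it was 6.06 ± 1.35 (adjusted p = 0.0566) and for Ppara -0.76 ± 0.21 (adjusted p = 0.0587).

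Of 8 marker lists besides the hepatocyte list, 4 had sums that in some HIRA KO libraries of columns 1 and 2 passed those of the other 12. These were cholangiocytes, stellate cells and matrix, the mesothelial surface and T and B cells, with ranges that in part overlapped. The other 12 hold libraries of both times. Before regeneration the 4 sums in control, in this order, were 84.0 to 113, 241 to 270, 144 to 190 and 2.49 to 4.58 CPM. All lay below HIRA KO columns 1 and 2 of that time. After regeneration control sums were 106 to 148, 195 to 446, 269 to 389 and 5.26 to 8.56 CPM. The stellate and T and B cell sums then overlapped with HIRA KO columns 1 and 2, and the other sums did not. Single markers were counted over both times at once. A marker that changes with regeneration could separate these libraries at each time and not be counted. Above the other 12 in all of them were 2 of 8 cholangiocyte, 1 of 10 stellate cell and matrix, 0 of 4 mesothelial and 0 of 7 T and B cell markers, and 1 of 10 hepatocyte markers. The 8 cholangiocyte markers summed to 136 to 194 CPM in HIRA KO columns 1 and 2 before and 169 to 191 CPM after regeneration, against 84.0 to 148 CPM in the other 12 libraries. The 10 stellate cell and matrix markers summed to 519.7 to 719 CPM before and 406 to 525 CPM after regeneration, against 195 to 446 CPM. The 4 mesothelial and lobe surface markers, of which Krt8 is also expressed by hepatocytes, summed to 214 to 242 CPM before and 531 to 566 CPM after regeneration, against 144 to 392 CPM. The Kupffer cell and macrophage markers (187 to 189 CPM before and 635 to 738 CPM after regeneration, against 130 to 979.9 CPM) and the endothelial markers (219 to 257 and 223 to 232 CPM, against 170 to 299 CPM) lay within the range of the other 12. So did the adipocyte markers (5.47 to 17.4 and 4.49 to 4.84 CPM, against 3.31 to 45.6 CPM) and the mitotic genes (13.9 to 19.6 and 40.3 to 60.1 CPM, against 3.73 to 264 CPM). Before regeneration alone, however, the mitotic genes summed to 3.73 to 9.90 CPM in control, below HIRA KO columns 1 and 2. After regeneration they summed to 35.8 to 264 CPM in control. The T and B cell markers had 6.74 to 11.7 and 7.39 to 10.4 CPM, against 2.49 to 8.63 CPM. No marker of these lists was at 0 in every library. The hepatocyte markers summed to 154693 to 172168 CPM in these libraries before and to 137169 to 148948 CPM after regeneration, against 112434 to 166473 CPM in the other 12. In control alone they summed to 112932 to 125794 CPM before and to 112434 to 166473 CPM after regeneration. The part of these cell types in the values above was not tested.

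**Figure D5:**
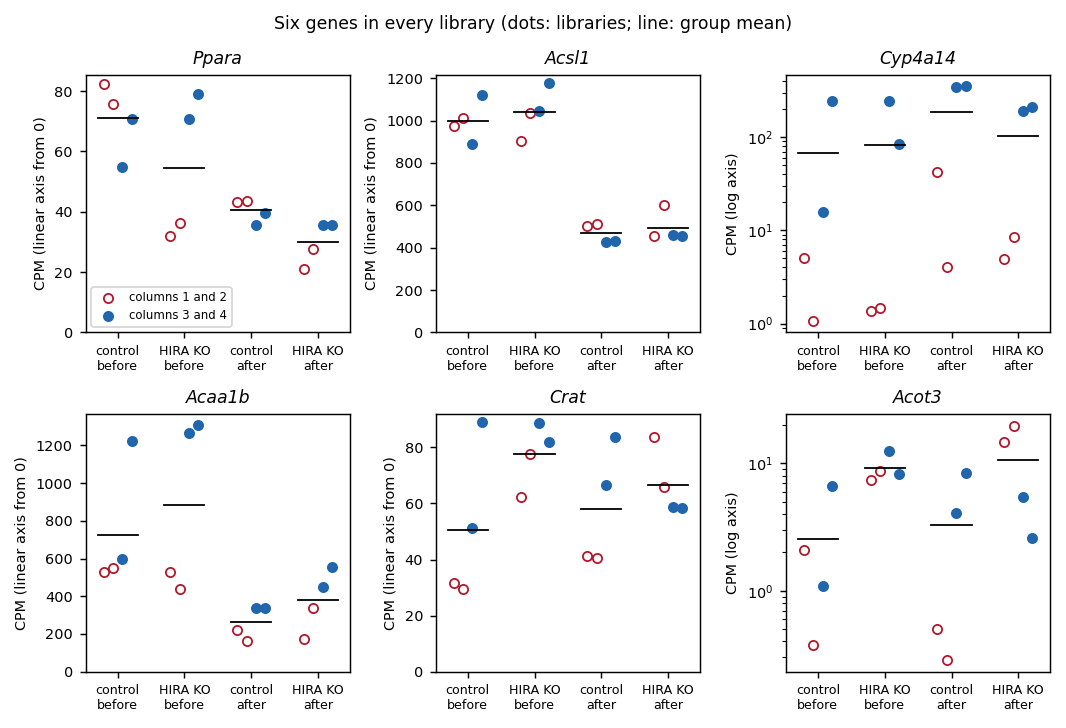
CPM of 6 genes in every library, with Cyp4a14 and Acot3 on a log axis and the others on a linear axis from 0. Open red circles are columns 1 and 2, filled blue circles columns 3 and 4, and lines group means. Ppara is lowest in HIRA KO columns 1 and 2 at both times, Acsl1 is lower in all 8 libraries after resection, and Cyp4a14 and Acaa1b are higher in columns 3 and 4 of every group.

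Ppara and Acsl1 were lower after resection in each pair of columns of each genotype. In control, 5 genes were called in columns 1 and 2, against 5.81% of all genes, and 8 in columns 3 and 4, against 13.7%. In HIRA KO, 5 were called in columns 1 and 2, against 8.75%, and 6 in columns 3 and 4, against 12.9%. Ppara fell in these 4 fits by 0.87, 0.74, 0.49 and 1.08 on the log2 scale (SE 0.15 in each), with adjusted p of 0.00247, 0.0025, 0.0476 and 0.000156. Acsl1 fell by 0.98, 1.23, 0.88 and 1.28 (SE 0.16). Acaa1b, not called over all libraries, was called in control columns 1 and 2 (-1.50 ± 0.35, adjusted p = 0.036) and 3 and 4 (-1.44 ± 0.35, adjusted p = 0.0218) and in HIRA KO columns 3 and 4 (-1.36 ± 0.35, adjusted p = 0.0292). Acot2 (1.80 ± 0.50) and Fgf21 (adjusted p = 0.0488) were the genes called higher, both in control columns 3 and 4.

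Outside the set, 74 further genes of fatty acid oxidation and PPARA signalling were listed, of which 73 were tested. Between HIRA KO and control 0 passed the test of edgeR before regeneration, against 0.0391% of all genes. At an unadjusted p under 0.05 there were 3 higher and 7 lower, against 13.2% of all genes. After regeneration 1 passed, the corepressor gene Ncor1, lower in HIRA KO at -0.47 ± 0.10 (adjusted p = 0.0413), against 0.491% of all genes. At an unadjusted p under 0.05 there were then 6 higher and 6 lower, against 15.8%. After resection 3 were called higher and 9 lower in control, and 2 higher and 7 lower in HIRA KO, with medians of -0.38 and -0.31 over the 73 genes, against 10.2% and 12.0% of all genes called in either direction and 4.17% and 5.53% called lower. Called higher in both genotypes were Cyp4a31, a further omega hydroxylase, at 3.02 ± 0.56 and 2.49 ± 0.55, and the mitochondrial carrier Ucp2, at 1.38 ± 0.18 and 1.19 ± 0.18. Lpin1, a phosphatidate phosphatase that coactivates PPARA, was lower in both, at -2.30 ± 0.61 in control (adjusted p = 0.0305) and with an adjusted p of 0.0203 in HIRA KO.

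Some members share sequence with near copies, and the counting could split their reads. Of the 50-base stretches in its transcripts, Acaa1b shared 30.5% with other genes, with Acaa1a the gene that shared most. For Cyp4a10 the share was 29.8%, for Acot2 27.7%, for Hadhb 19.7%, for Acot1 19.2%, for Acot3 19.1% and for Acaa1a 12.9%. The values of these genes are less certain for it. The shares do not measure the error of a count, and the part of shared sequence in the values was not tested. Hadha and Hadhb start 85 bases apart on opposite strands, and Cyp4a10 and Cyp4a14 lie 22121 bases apart.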

How the data were processed

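RNA had been extracted from liver with TRIzol and a column kit, and poly-A libraries had been made with a directional kit. Per the labels, the submitters' processing notes name STAR, HTSeq and Cufflinks and the build mm10, while the methods of the study name HOMER as the counter; which of these made the table is not settled in the sources used here. The authors deposited whole-number read counts per gene, used here for all tests, and a table of FPKM (fragments per transcript length, scaled to the library), used here to compare levels between genes. In the FPKM table between 4613 and 5667 genes with 0 counts had a value in a library, so it was not the counts divided by length. Of 55421 gene IDs, 54587 were identical to those of GENCODE M21 (GRCm38), from which coordinates were taken.

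A gene entered the tests if its counts summed to 10 or more over all libraries, which left 23018 genes. Libraries were scaled by TMM (factors 0.915 to 1.10). The robust quasi-likelihood test of edgeR (version 4.0.16, in R version 4.3.3) was applied to a single model with 4 group means, with Benjamini-Hochberg adjustment over the 23018 genes, and calls were made at adjusted p values under 0.05. The SE of a log2 fold change is approximate (its size divided by the root of the F statistic). The fit was checked on simulated counts before use. The members and gene lists were chosen with earlier results of these data known. Per-library values were printed for called members and for a fixed list of 16 members, and Crat, Crot, Acot2, Acot3 and Slc27a2 were added after their values had been seen. The columns carry a number that is in no label, so a column served only as 1 replicate within its group. Alternatives were DESeq2 (version 1.42.0), other size factors and filters, no robust estimation, fits on the compared groups only, limma (version 3.58.1) on log2(FPKM + 1) for genes with a mean FPKM of at least 0.1, and fits without 1 library or without the 4 HIRA KO libraries that lie apart. Fits with the column pair as a term or within column pairs were chosen after seeing the data. Replicate pairs within groups differed by a chi-square of 12.4 to 135 per degree of freedom, so no library was counted as a copy of another.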

Additional observations from a re-analysis of the deposited data

Results flagged for a closer look

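In 156 groups of 4 libraries (39 genes in 4 groups), 1 library lay farther from the other 3 than Dixon's 95% limit in 5, where chance gives about 1 in 20. Acsl1 after regeneration had 599 CPM in HIRA KO column 2, against 456 to 458 CPM in the other 3 HIRA KO libraries of that time. Hadh had 193 CPM in HIRA KO column 1 after regeneration, against 276 to 291 CPM. Before regeneration in control, Hadhb had 98.4 CPM in column 3 against 115 to 117 CPM, Acaa2 had 842 CPM in column 4 against 716 to 728 CPM, and Acaa1b had 1226 CPM in column 4 against 529 to 597 CPM. Without the library at 599 CPM, and without each other library in turn, Acsl1 was called in HIRA KO after against before regeneration.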

How the results depend on the processing

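No paired analysis was possible because the columns carry no mouse, replicate number or deletion approach from the labels, so fits with a replicate block or with the approach as a covariate were not run, although libraries before and after regeneration can share mice. HIRA KO against control gave 0 called genes of the 39 at both times, as did the interaction, under every alternative except within columns 1 and 2. There it gave 5 before and 9 after regeneration, against 8.55% and 12.4% of all genes. Outside those columns, the alternatives called 1 to 375 genes over all genes before regeneration and 0 to 910 after it. For the interaction they called 0 to 67. With so few genes called over all, 0 of 39 says little about this set. For after against before in control, the count of 2 became 6 with DESeq2, 5 with filterByExpr, 9 with only the groups compared, 1 with limma on FPKM, 10 without the HIRA KO libraries that lie apart, 9 with the column pair as a term, 5 within columns 1 and 2 and 8 within columns 3 and 4, and leaving out 1 library gave 1 to 3. In HIRA KO the count of 2 became 4 with DESeq2, 1 without a filter on low counts, 1 with only the groups compared, 1 with limma on FPKM, 4 without the libraries that lie apart, 5 with the column pair as a term, 5 within columns 1 and 2 and 6 within columns 3 and 4, and leaving out 1 library gave 1 to 3. The number called over all genes moved too. In control it went from 2350 to 3282, 2733, 3169, 1918, 3784, 3253, 1337 and 3151 in the order of settings above. Leaving out 1 library gave 1519 to 2324. In HIRA KO it went from 2764 to 3654, 2197, 1340, 2669, 2195, 3814, 2013 and 2980, again in the order above. Leaving out 1 library there gave 1636 to 2784. The cause of these changes was not tested. Acsl1 was called lower in both genotypes in all fits. Acaa1a in control lost its call without each library but 1, and Ppara in HIRA KO without 5 of 8. With the column pair as a term, Ppara had an adjusted p of 0.0456 in control and 0.0379 in HIRA KO, and Acaa1b of 0.000691 and 0.00315. The HIRA KO value of Acot3 after regeneration, 1.66 ± 0.94 over all libraries, turned to -0.62 ± 0.79 within columns 3 and 4 and was 5.44 ± 1.07 within columns 1 and 2. Fgf21 was counted by 1 to 329 reads in a library and Acot3 by as few as 5, and the part of depth in their errors was not tested.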
